A study of Mus musculus with 29 samples.

Results

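Vegfa, Vegfb, Vegfc, Angpt1, Angptl4, Sema3a, Sema3g, Edn1, Ednra and Ednrb were followed as signals between the podocyte and the glomerular capillary. They were chosen by symbol, and all probes whose transcript accession maps to one of these symbols were taken: 13 probes for the 10 genes, of 20141 named genes on the array. All 10 genes passed the filter on dim probes and were among the 15624 genes tested. Vegfa, Sema3a and Ednrb had a second probe, and the brightest probe stood for the gene.

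The arrays came from male C57BL/6J mice of the Pod-hCD25T/G line, aged 8 weeks, in which podocytes were sorted by fluorescence into an EGFP and a TdTomato population. LMB2 is an immunotoxin against human CD25, given once at 25 ng per gram of body weight after a heminephrectomy. Day 0 is before the injection, and the sources used here do not say whether day 0 mice had the heminephrectomy. In this mouse line, by background knowledge that the labels do not give, TdTomato is the colour of podocytes with the toxin's receptor and EGFP that of podocytes without it, so the comparisons ask about direct and indirect injury. At days 0, 1, 4 and 7 there were 4, 3, 4 and 4 EGFP arrays and 4, 4, 4 and 2 TdTomato arrays, 29 in all from 16 mice, of which 13 gave both populations. Mice of different days are different animals. The sources used here do not name the promoter that drives the human CD25 and reporter genes.

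Podocytes sit on the outer face of the glomerular filter and make VEGF-A, which crosses the basement membrane and keeps the fenestrated endothelium alive through the receptor Kdr. Angiopoietin-1 acts on the endothelial receptor Tek, class 3 semaphorins act through neuropilins and plexins and can oppose VEGF, and angiopoietin-like 4 is a secreted inhibitor of lipoprotein lipase and a target gene of the PPAR receptors. Endothelin-1 is a constrictor peptide made mostly by endothelium, and it acts on the receptors Ednra and Ednrb, both of which injured podocytes can carry.

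Each level below is a log2 signal minus the 75th percentile of its own array, so 0 is the brightness of that percentile. A level can be compared between arrays for one probe but not between probes. Between 48.2% and 65.5% of the spots were well above background, a call made by the scanner software, and 0 were saturated. The number of arrays limits the precision. All 10 markers of the podocyte list were well above background on every array. Nphs1, which encodes nephrin of the slit diaphragm, stood at 7.60 ± 0.22 (SD, n = 4) in TdTomato cells at day 0 and at 6.27 ± 0.10 (SD, n = 4) at day 4. The median of all tested genes moved as well: by -0.13, -0.29 and -0.14 in TdTomato cells at days 1, 4 and 7 against day 0, and by -0.02 and 0.07 in EGFP cells at days 1 and 4. Between the populations it was -0.33 at day 4 and -0.18 at day 7. Both arrays of mouse MC221 at day 7 need care. The authors' deposited values under these names match no scanner file, while the other 27 columns match their own. They lie closest to arrays of other day 7 mice (r = 0.993 to EGFP MC943 and 0.995 to TdTomato MC791). At day 7 the authors' values are therefore not a separate check of these arrays. Many day 7 values are also given without that mouse ("without MC221"). In a sorted bulk sample, fewer cells of a type and less RNA per cell cannot be told apart.

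**Figure D1:**
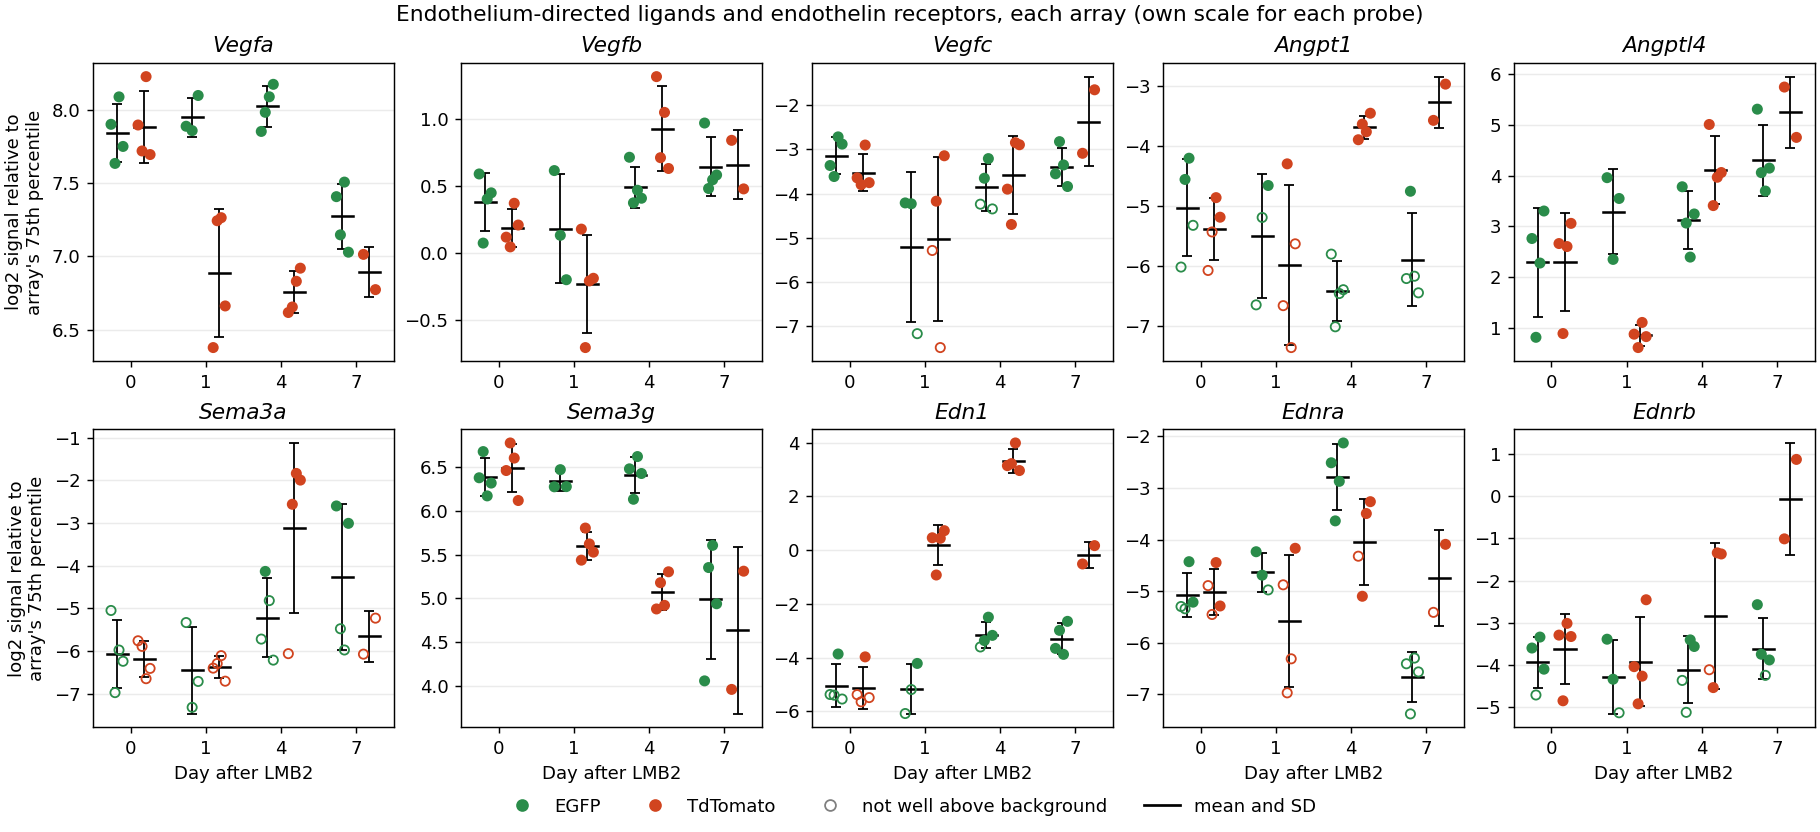
Log2 signal of the 10 genes on each of the 29 arrays, by day after LMB2, with EGFP cells in green and TdTomato cells in red; open circles are not well above background, and black bars give the mean and SD of each group. Vegfa and Sema3g fell in TdTomato cells from day 1 and Edn1 rose there to a peak at day 4, while Angptl4 was low at day 1 and high at day 7.

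Vegfa, the main VEGF ligand of the podocyte, was lower in TdTomato cells at each later day and slightly lower in EGFP cells at day 7. At day 0 the 4 TdTomato arrays read 7.90, 7.72, 8.23 and 7.69 and the 4 EGFP arrays 7.90, 7.63, 8.09 and 7.75. The TdTomato arrays read 6.38, 7.24, 7.26 and 6.66 at day 1, 6.62, 6.65, 6.83 and 6.92 at day 4, and 7.01 and 6.77 at day 7. Every later TdTomato array lay below every day 0 array. The EGFP arrays read 7.89, 7.86 and 8.10 at day 1 and 7.85, 7.98, 8.09 and 8.17 at day 4, which overlap day 0. At day 7 they read 7.41, 7.15, 7.51 and 7.03, below all day 0 arrays.

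In TdTomato cells Vegfa fell 2.0-fold at day 1 (log2 -1.0 ± 0.18, SE; limma adjusted p = 3.8e-05), 2.19-fold at day 4 (-1.13 ± 0.18, adjusted p = 1.1e-05) and 1.99-fold at day 7 (-0.99 ± 0.22, adjusted p = 0.0021). The day 7 value was -1.11 without mouse MC221 (limma adjusted p = 0.015), missed the threshold without MC791 (-0.87, adjusted p = 0.053) and with quantile scaling (-0.92, adjusted p = 0.075). The second Vegfa probe gave -1.15 and -0.83 at days 1 and 4, both past the limma threshold, and -0.49 at day 7 (limma adjusted p = 0.35). In EGFP cells the day 7 fall was 1.49-fold (-0.57 ± 0.18, limma adjusted p = 0.049), a call at the edge of the threshold. It ended with quantile scaling (-0.66, limma adjusted p = 0.18), without the filter on dim probes, with only the groups compared in the fit, with the mouse as a replicate block (-0.57, adjusted p = 0.056), without MC221 (-0.62, adjusted p = 0.062) and when any of 7 of the 8 arrays was left out. The second probe gave -0.89 (limma adjusted p = 0.036).

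Within a mouse, TdTomato cells had less Vegfa than EGFP cells in 3 of 3 mice at day 1, 4 of 4 at day 4 and 2 of 2 at day 7, with differences of -1.51 to -0.61, -1.33 to -1.24 and -0.39 to -0.37. At day 7 the direction turned with the second Vegfa probe, which gave 0.18 between the populations. At day 0 the difference was -0.06 to 0.14. Between the populations Vegfa differed by -1.06 ± 0.19 at day 1 (limma adjusted p = 5.1e-05) and by -1.27 ± 0.18 at day 4 (adjusted p = 2.3e-06), and at day 7 the -0.38 ± 0.22 did not pass (adjusted p = 0.31; -0.45 without MC221, adjusted p = 0.52). The change from day 0 was more negative in TdTomato than in EGFP cells at day 1 (-1.10 ± 0.26, limma adjusted p = 0.0015) and day 4 (-1.31 ± 0.25, adjusted p = 0.00027), and at day 7 this difference was -0.42 ± 0.28 (adjusted p = 0.54; 0.39 with the second probe). In the order of group means, EGFP at days 4 and 1 and both day 0 groups came at the top (8.02 to 7.84) and overlapped each neighbour. EGFP at day 7 (7.27) was apart from its neighbours, and TdTomato at days 7, 1 and 4 (6.89, 6.89 and 6.75) overlapped each other.

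Vegfb, a ligand of Flt1, was called higher in TdTomato cells at day 4 only among the later days tested. Its day 0 arrays read 0.12, 0.04, 0.37 and 0.21 and its day 4 arrays 1.32, 0.71, 1.05 and 0.63, with no overlap. The rise was 1.67-fold (0.74 ± 0.19, limma adjusted p = 0.0024). All 4 mice had more Vegfb in TdTomato than in EGFP cells at day 4 (0.22 to 0.60), a difference of 0.44 that missed the threshold (limma adjusted p = 0.057) and passed with the mouse as a replicate block (adjusted p = 0.0097). At day 1 the TdTomato arrays read 0.18, -0.71, -0.21 and -0.19 against 0.61, 0.13 and -0.20 in EGFP cells, and the groups overlapped. That difference of -0.41 did not pass (limma adjusted p = 0.11) and passed with the block (-0.43, adjusted p = 0.027). It was -0.20 without the EGFP array of MC125 (adjusted p = 0.51), -0.26 without the TdTomato array of MC541 (adjusted p = 0.33), and past the threshold without the TdTomato array of MC125 (-0.55, adjusted p = 0.038) or the EGFP array of MC542 (-0.61, adjusted p = 0.033). The difference in change from day 0 to day 4, TdTomato minus EGFP, was 0.63 (limma adjusted p = 0.066; with the block adjusted p = 0.011).

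Vegfc, the ligand best known for lymphatic growth, was dim, well above background on 24 of 29 arrays, and did not pass the test in any of the 13 comparisons. The 8 group means lay between -5.20 ± 1.70 (SD, n = 3) in EGFP cells at day 1 and -2.37 ± 1.02 (SD, n = 2) in TdTomato cells at day 7, and every group overlapped the next in the order. The 2 lowest values, -7.17 and -7.48, were the EGFP and TdTomato arrays of mouse MC542 at day 1, neither well above background.

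Among the 7 other VEGF ligands and receptors on the array, Pgf, the placental growth factor, rose in TdTomato cells 39.4-fold at day 4 (5.30 ± 0.52, limma adjusted p = 1.1e-08) and 9.46-fold at day 7 (3.24 ± 0.64, adjusted p = 0.00077). Only 1 of the 4 day 0 arrays had Pgf well above background. The coreceptor Nrp1 fell 3.45-fold at day 1 (-1.79 ± 0.29, limma adjusted p = 1.3e-05) and 2.37-fold at day 4 (-1.25 ± 0.29, adjusted p = 0.00084), and the receptor Kdr fell 1.64-fold at day 1 (-0.71 ± 0.27, adjusted p = 0.028). In TdTomato cells 0 of the 7 rose and 2 fell at day 1, 3 rose and 1 fell at day 4, and 4 rose and 0 fell at day 7. Of all genes 51.8%, 57.3% and 19.4% were called at these days in either direction. The median of the list was -0.59, 1.25 and 1.99, beside -0.13, -0.29 and -0.14 for all genes. Without MC221, which leaves 1 TdTomato array at day 7, the 4 that rose there differed by 3.72 (Flt1), 2.82 (Flt4), 1.36 (Nrp2) and 3.51 (Pgf). In EGFP cells the coreceptor Nrp2 rose at day 7 (1.88-fold, 0.91 ± 0.20, limma adjusted p = 0.0036), with 0 of 7 called at days 1 and 4. Of all genes 0.0256%, 0.595% and 7.26% were called in EGFP cells at days 1, 4 and 7.

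Angpt1, the activating ligand of Tek, was near the detection limit, well above background on 13 of 29 arrays. At day 4 the TdTomato arrays read -3.89, -3.63, -3.76 and -3.45, all well above background, and the EGFP arrays of the same mice -5.80, -7.01, -6.45 and -6.39, none of them so. The TdTomato day 0 arrays read -6.07, -5.43, -4.85 and -5.18, with 2 of 4 well above background, and the day 7 arrays -3.57 and -2.96. Every TdTomato array of days 4 and 7 lay above every other array of the series.

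The rise in TdTomato cells was 3.25-fold at day 4 (1.70 ± 0.53, limma adjusted p = 0.0089) and 4.34-fold at day 7 (2.12 ± 0.65, adjusted p = 0.025). Both calls ended with normexp background correction (0.03 and 0.48) and with quantile scaling (1.38 and 1.82), and that at day 7 also with the replicate block (1.87, limma adjusted p = 0.059), without MC221 (2.42, adjusted p = 0.084), without MC791 (1.82, adjusted p = 0.19) and without MC122 of day 0 (1.89, adjusted p = 0.061). Against EGFP cells, Angpt1 was at least 1.74-fold higher at day 4 (fitted difference 2.73 ± 0.53, limma adjusted p = 0.00013). At day 7 the difference was 2.63 ± 0.65 (limma adjusted p = 0.013), and it missed the threshold with the block (2.21, adjusted p = 0.054), with quantile scaling (2.58, adjusted p = 0.060), with only the groups compared (adjusted p = 0.053), without MC221 (2.82, adjusted p = 0.089) and without MC791 (2.32, adjusted p = 0.16). The change from day 0 to day 4 was 3.10 ± 0.75 higher in TdTomato than in EGFP cells (limma adjusted p = 0.0023). With normexp correction the day 4 differences were 0.26 and 0.15, and neither passed.

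Angptl4 was low in TdTomato cells at day 1 and high in both populations by day 7. TdTomato cells read 2.66, 0.88, 2.60 and 3.06 at day 0 and 0.87, 0.61, 1.1 and 0.82 at day 1, and the groups overlap at the array of MC731 of day 0. They then read 5.01, 3.41, 3.97 and 4.06 at day 4 and 5.74 and 4.75 at day 7, all above day 0. EGFP cells read 2.76, 0.81, 2.27 and 3.30 at day 0, 3.96, 2.35 and 3.55 at day 1, 3.78, 3.06, 2.39 and 3.24 at day 4, and 5.31, 4.06, 3.69 and 4.15 at day 7. In EGFP cells only the day 7 arrays were clear of day 0.

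Angptl4 fell 2.73-fold in TdTomato cells at day 1 (-1.45 ± 0.51, limma adjusted p = 0.020), and this call ended without MC122, MC742 or MC753 of day 0 (-1.35 to -1.20). It rose 3.51-fold at day 4 (1.81 ± 0.51, limma adjusted p = 0.0044) and 7.72-fold at day 7 (2.95 ± 0.63, adjusted p = 0.0017; 2.45 without MC221, adjusted p = 0.050, just over the threshold). In EGFP cells it rose 4.04-fold at day 7 (2.02 ± 0.51, limma adjusted p = 0.014; 1.68 without MC221, adjusted p = 0.062), and the call also ended without MC731 of day 0 (1.52) and with only the groups compared (adjusted p = 0.083). Day 1 set the populations apart most: within the 3 mice TdTomato cells were lower by -3.09 to -1.74, and the fitted difference was -2.43 ± 0.55, or 5.40-fold (limma adjusted p = 0.00068). The change from day 0 to day 1 differed by -2.45 ± 0.75 (limma adjusted p = 0.012). At day 4 the sign was the other way in 4 of 4 mice (0.34 to 1.57), at 0.99 ± 0.51 (limma adjusted p = 0.10), and past the threshold with the replicate block (0.99, adjusted p = 0.0016). The difference in change from day 0 to day 4 was 0.98 (limma adjusted p = 0.29; with the block adjusted p = 0.017), and it ran from 0.51 without the TdTomato array to 1.47 without the EGFP array of MC731 of day 0. In the order of means, TdTomato at day 7 (5.25), EGFP at day 7 (4.30) and TdTomato at day 4 (4.11) came at the top and TdTomato at day 1 (0.85) at the bottom, and each neighbouring pair of the 8 groups overlapped.

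Angptl4 is a target of PPAR receptors, and of the 14 other PPAR-induced lipid genes tested, 2 rose and 6 fell in TdTomato cells at day 1, 2 rose and 4 fell at day 4, and 4 rose and 0 fell at day 7 (2 rose without MC221). Of all genes 51.8%, 57.3% and 19.4% were called at these days, so the counts at days 1 and 4 lie near the share of all genes. Pdk4, a kinase that spares glucose, went with the days as Angptl4 did at days 1 and 7: it fell 2.61-fold at day 1 (-1.38 ± 0.34, limma adjusted p = 0.0014) and rose 4.88-fold at day 7 (2.29 ± 0.42, adjusted p = 0.00037). In EGFP cells at day 7 Pdk4 rose 5.47-fold (2.45 ± 0.34, limma adjusted p = 2.3e-05) and the lipid droplet protein Plin2 1.97-fold (0.98 ± 0.15, adjusted p = 5.5e-05). They were the only 2 of the 14 called (7.26% of all genes were called), and both passed without MC221 (2.35 and 0.96). The fatty acid transporter Cd36 rose in TdTomato cells at each later day, 6.86-fold, 11.2-fold and 7.03-fold, from 1 of 4 day 0 arrays well above background, and its day 7 call ended without MC221 (3.13, limma adjusted p = 0.061).

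Of the 7 other angiopoietin-family genes tested, the secreted Angptl2 fell in TdTomato cells 4.30-fold at day 1 (-2.11 ± 0.33, limma adjusted p = 8.5e-06), 3.24-fold at day 4 and 2.65-fold at day 7. Angptl6 fell 3.44-fold and 1.93-fold at days 1 and 4. Angptl7 fell 2.46-fold at day 4 (-1.30 ± 0.42, limma adjusted p = 0.012) and rose 6.38-fold at day 7 (2.67 ± 0.52, adjusted p = 0.00071). In EGFP cells at day 7 Angptl7 rose 11.8-fold (3.56 ± 0.42, limma adjusted p = 2.7e-06), the only 1 of the 7 called there (7.26% of all genes were called). Counts in TdTomato cells were 0 higher and 3 lower at day 1, 0 and 3 at day 4, and 2 and 1 at day 7, beside 51.8%, 57.3% and 19.4% of all genes called. Without MC221 the day 7 count was 1 higher, Angptl7 (3.09), and 0 lower.

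Sema3g, a secreted class 3 semaphorin abundant in podocytes, fell with Vegfa. The TdTomato arrays read 6.46, 6.77, 6.60 and 6.11 at day 0, 5.44, 5.80, 5.62 and 5.53 at day 1, 4.88, 5.18, 4.92 and 5.30 at day 4, and 3.96 and 5.31 at day 7. Each later group lay below day 0 without overlap. The EGFP arrays read 6.37, 6.67, 6.17 and 6.31 at day 0, 6.27, 6.47 and 6.27 at day 1, 6.48, 6.13, 6.61 and 6.42 at day 4, and 4.06, 5.35, 5.60 and 4.94 at day 7. EGFP cells kept their day 0 range through day 4 and were below it on all day 7 arrays. The 2 lowest values, 3.96 and 4.06, were both of MC221.

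The fall in TdTomato cells was 1.85-fold at day 1 (-0.89 ± 0.26, limma adjusted p = 0.0063), 2.66-fold at day 4 (-1.41 ± 0.26, adjusted p = 8.9e-05) and 3.60-fold at day 7 (-1.85 ± 0.32, adjusted p = 0.00022; -1.17 without MC221, adjusted p = 0.0055). In EGFP cells at day 7 it was 2.62-fold (-1.39 ± 0.26, limma adjusted p = 0.00092; -1.08 without MC221, adjusted p = 0.00036). TdTomato cells were lower than EGFP cells of the same mouse in 3 of 3 mice at day 1 (-0.83 to -0.65) and 4 of 4 at day 4 (-1.69 to -0.95). The fitted differences were -0.74 ± 0.28 (limma adjusted p = 0.033; lost without any 1 of 6 of the 7 arrays, -0.77 to -0.68) and -1.34 ± 0.26 (adjusted p = 0.00014). At day 7 the within-mouse differences were -0.10 and -0.04, and the fitted -0.35 ± 0.32 did not pass (limma adjusted p = 0.51). That value was 0.01 without MC221, 0.32 without only its TdTomato array and -1.02 without the TdTomato array of MC791, so 1 array sets its sign and size. The changes from day 0 differed by -1.44 ± 0.37 at day 4 (limma adjusted p = 0.0035), and at day 1 by -0.84 ± 0.39 (adjusted p = 0.092; -0.82 and adjusted p = 0.0048 with the replicate block).

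The stretch before the start site is shown for Vegfa and Sema3g, which fell, and for Edn1, which rose, picked for these directions. The sequences are from RefSeq (GRCm38.p6) and hold the 250 bases before the start, 5′ to 3′ on the gene's own strand, with letters in capitals where GGGCGG, a motif bound by Sp1-type factors, matches on either strand. Of the 10 genes 8 were matched in this table, and Vegfa has 2 starts there, of which the farther upstream is shown. They are Vegfa at chr17:46032378-46032627 (minus strand), Sema3g at chr14:31217623-31217872 (plus strand) and Edn1 at chr13:42301226-42301475 (plus strand).
Vegfa: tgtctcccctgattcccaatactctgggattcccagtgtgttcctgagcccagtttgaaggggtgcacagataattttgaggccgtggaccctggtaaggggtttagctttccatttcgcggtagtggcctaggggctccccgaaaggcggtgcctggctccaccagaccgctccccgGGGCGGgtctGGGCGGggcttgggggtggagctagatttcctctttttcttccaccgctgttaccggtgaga
Sema3g: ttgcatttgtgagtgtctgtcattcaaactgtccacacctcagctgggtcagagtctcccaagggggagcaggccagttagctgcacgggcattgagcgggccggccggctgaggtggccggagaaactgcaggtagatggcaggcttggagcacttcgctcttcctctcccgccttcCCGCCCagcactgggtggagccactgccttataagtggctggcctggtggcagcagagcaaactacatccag
Edn1: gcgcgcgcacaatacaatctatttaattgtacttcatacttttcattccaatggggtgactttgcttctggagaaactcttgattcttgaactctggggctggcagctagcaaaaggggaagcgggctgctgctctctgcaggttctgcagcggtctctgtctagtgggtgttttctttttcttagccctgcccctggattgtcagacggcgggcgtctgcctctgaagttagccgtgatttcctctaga
Vegfa has 2 matches, 72 and 62 bases before the start, and Sema3g has 1, 72 bases before it. It has 0 matches in Edn1, and 32.7% of 32851 promoters of this length hold at least 1 match. Among the genes not shown, Vegfb, called higher in TdTomato cells at day 4, has 4 matches. Vegfc, not called in any comparison, has 2, and Sema3a, Ednra and Ednrb have 0. The hypoxia core ACGTG (16.6% of promoters), the AP-1 motif TGANTCA (6.75%) and the TATA motif TATAAA (12.4%), searched on both strands, have 0 matches in these 3 windows. The other Vegfa start in the table, whose window is not shown, has 1 match of ACGTG, at -211 from that start, and 1 of GGGCGG. A match is a description of the letters only.

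Sema3a, a repulsive guidance factor for endothelium, was detected on 6 of 29 arrays and on 0 of the 8 day 0 arrays. At day 4 the TdTomato arrays read -6.06, -2.56, -1.84 and -2.0, and only the first, of MC151, was not well above background. At day 7 the EGFP arrays of MC221 (-2.60) and MC943 (-3.01) were detected and the 2 TdTomato arrays were not. Sema3a was at least 3.89-fold higher in TdTomato cells at day 4 than at day 0 (fitted difference 3.06 ± 0.78, limma adjusted p = 0.0019), with overlap through MC151. It was 2.11 ± 0.78 higher than in EGFP cells at day 4 (limma adjusted p = 0.023), a call that ended without any of 5 of the 8 arrays (1.68 to 1.94) and with only the groups compared (adjusted p = 0.087). Both calls ended with normexp correction (0.39 and 0.34). The second Sema3a probe was not well above background on any array, so the signal rests on 1 probe.

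Of the 9 other class 3 semaphorin and receptor genes tested, Sema3f fell in TdTomato cells 4.64-fold at day 1 (-2.22 ± 0.27, limma adjusted p = 2.6e-07) and 3.03-fold at day 4. The plexin receptor Plxna4 was at least 13.2-fold higher at day 4 and at least 6.34-fold higher at day 7, and Plxna3 rose 2.78-fold at day 4 (1.47 ± 0.17, limma adjusted p = 1.1e-07). In TdTomato cells 0 rose and 2 fell at day 1, 2 rose and 4 fell at day 4, and 3 rose and 1 fell at day 7 (2 and 1 without MC221), beside 51.8%, 57.3% and 19.4% of all genes called. At day 4 the secreted ligands Sema3b, Sema3e and Sema3f all fell, with the receptor Plxna1. In EGFP cells 1 of 9, Plxna2, rose at day 7 (2.83-fold, log2 1.5 ± 0.46, limma adjusted p = 0.046; 1.47 without MC221, adjusted p = 0.096). Of all genes 7.26% were called there.

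Edn1, which encodes endothelin-1, had the largest change of the 10 genes in TdTomato cells. At day 0 the TdTomato arrays read -5.38, -5.65, -3.97 and -5.49 and the EGFP arrays -5.38, -5.40, -3.87 and -5.54, and only MC742 was well above background in either. The TdTomato arrays read 0.46, -0.93, 0.44 and 0.72 at day 1, 3.14, 3.22, 3.99 and 2.96 at day 4, and -0.52 and 0.17 at day 7. All 10 lay far above day 0, and the day 4 arrays lay above those of days 1 and 7. The EGFP arrays read -6.08, -5.19 and -4.22 at day 1, -3.61, -3.37, -2.50 and -3.17 at day 4, and -3.66, -2.99, -3.88 and -2.65 at day 7. They exceeded all day 0 arrays at day 4, and at day 7 MC824 (-3.88) fell just short of MC742 of day 0 (-3.87).

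Edn1 rose in TdTomato cells 39.3-fold at day 1 (5.30 ± 0.46, limma adjusted p = 1.5e-09), 350-fold at day 4 (8.45 ± 0.46, adjusted p = 3.7e-13) and 30.9-fold at day 7 (4.95 ± 0.56, adjusted p = 7.6e-07; 5.29 without MC221, adjusted p = 5.4e-05). Because 1 of 4 day 0 arrays was well above background, these folds rest on values near the detection limit. In EGFP cells the rise was 3.69-fold at day 4 (1.89 ± 0.46, limma adjusted p = 0.059) and 3.37-fold at day 7 (1.75 ± 0.46, adjusted p = 0.017; 1.87 without MC221, adjusted p = 0.026). The day 4 value was 0.48 with normexp correction (limma adjusted p = 0.91). It passed without MC742 of day 0 (2.28, limma adjusted p = 0.018), with the slide block (1.89, adjusted p = 0.0064) and with the authors' values (1.88, adjusted p = 0.048). The day 7 call ended with normexp correction (0.45), with quantile scaling (1.67, limma adjusted p = 0.059), with only the groups compared (adjusted p = 0.055), and without MC731 or MC753 of day 0 or MC943 of day 7 (1.54 to 1.63). On the linear scale the EGFP rise was 0.790% of the TdTomato rise at day 4 and 8.38% at day 7. The part of carried-over TdTomato RNA in the EGFP rise was not tested.

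Within a mouse, Edn1 was higher in TdTomato than in EGFP cells in all 9 pairs after LMB2, by 4.26 to 6.54 at day 1, 6.14 to 6.75 at day 4 and 3.14 to 3.15 at day 7, and by -0.25 to 0.05 at day 0. The fitted differences were 5.34 ± 0.50 (limma adjusted p = 6.4e-09), 6.49 ± 0.46 (adjusted p = 5.0e-11) and 3.12 ± 0.56 (adjusted p = 0.00056; 3.34 without MC221, adjusted p = 0.011). The changes from day 0 differed by 5.42 ± 0.68, 6.57 ± 0.65 and 3.20 ± 0.73 (limma adjusted p = 1.6e-06, 4.6e-08 and 0.011). The last was 3.42 without MC221 (limma adjusted p = 0.048) and 2.86 without the TdTomato array of MC791 (adjusted p = 0.12). In the order of means, TdTomato at day 4 (3.33) stood apart, TdTomato at days 1 and 7 (0.17 and -0.17) overlapped, and the EGFP groups and TdTomato at day 0 came below without overlap with these (-3.16 to -5.16).

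**Figure D2:**
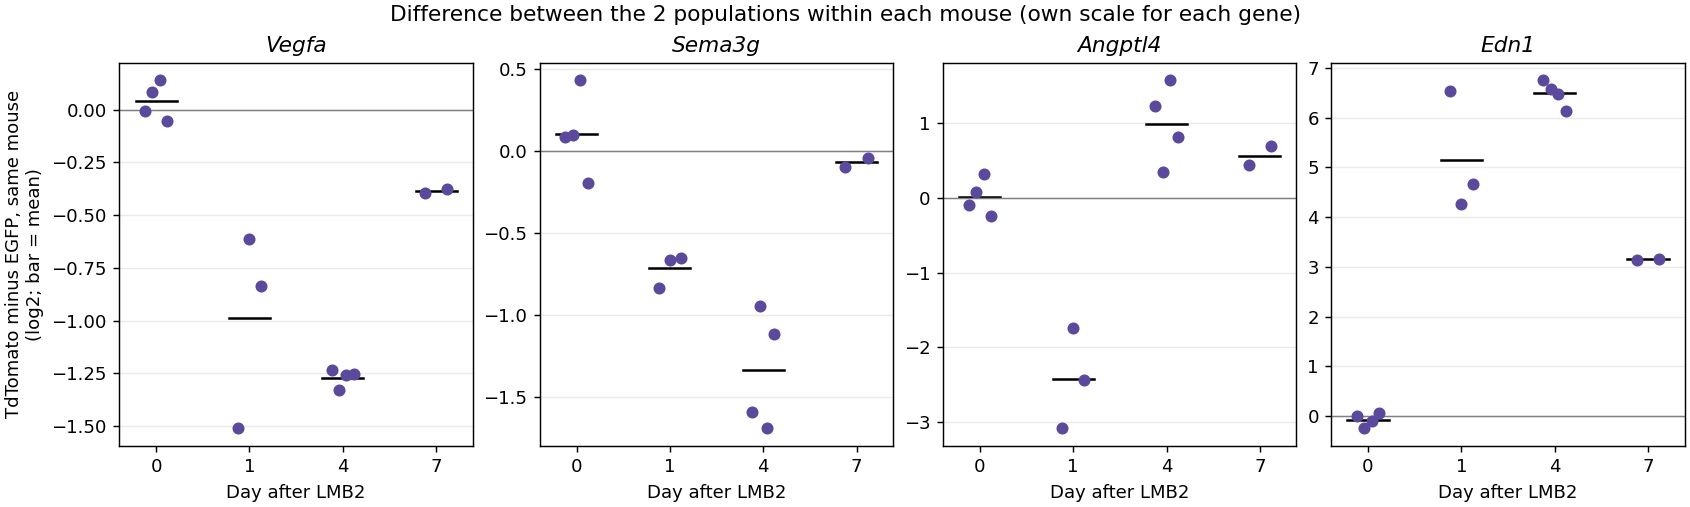
Difference in log2 signal between TdTomato and EGFP cells of the same mouse (y axis) by day after LMB2 (x axis), for Vegfa, Sema3g, Angptl4 and Edn1; each point is a mouse and the bar is the mean. All 4 mice at day 4 are below 0 for Vegfa and Sema3g and above 6 for Edn1, and the sign of Angptl4 is negative at day 1 and positive at days 4 and 7.

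Edn1 is itself known from endothelium, so its level was set beside the endothelial marker list. In the 4 TdTomato arrays of day 4 (MC151, MC692, MC822 and MC823) Cdh5 read -3.37, -5.01, 0.43 and 0.38 and Edn1 3.14, 3.22, 3.99 and 2.96. Cdh5, VE-cadherin, was split over these arrays and Edn1 was not. Pecam1 (-1.48 to -0.18, against -2.73 to -1.80) and Esam (-0.42 to 1.34, against -3.55 to -1.48) were above all TdTomato day 0 arrays on all 4 of these arrays. No other marker on the list was. Of the 14 markers, 3 were called higher and 1 lower at day 4 (57.3% of all genes were called, 21.4% higher and 35.9% lower). The part of endothelial RNA in the Edn1 result was not tested. Of the 3 other endothelin genes tested, the processing enzyme Ece1 rose 5.40-fold in TdTomato cells at day 1 (2.43 ± 0.28, limma adjusted p = 1.3e-07), and 2 of 3 rose and 0 fell (51.8% of all genes were called). At days 4 and 7 against day 0, 0 of 3 were called in either population (57.3% and 19.4% of all genes in TdTomato cells, 0.595% and 7.26% in EGFP cells). At day 4 Ece1 was 1.90-fold lower in TdTomato than in EGFP cells (-0.93 ± 0.28, limma adjusted p = 0.0069).

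Ednra, the constrictor receptor, was dim and well above background on 15 of 29 arrays, with its highest level in EGFP cells at day 4. The EGFP arrays read -5.30, -5.34, -4.43 and -5.21 at day 0, -4.24, -4.69 and -4.98 at day 1, and -2.51, -3.64, -2.87 and -2.13 at day 4. At day 7 they read -6.41, -7.38, -6.30 and -6.57, none well above background. All day 4 arrays lay above day 0 and all day 7 arrays below it. The TdTomato arrays read -4.32, -5.10, -3.50 and -3.27 at day 4, overlapping both their day 0 arrays (-5.45 to -4.45) and EGFP cells at day 4.

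The EGFP rise at day 4 was 4.87-fold (2.28 ± 0.50, limma adjusted p = 0.027), and the difference at day 7, where no array was well above background and no fold can be given, was -1.59 ± 0.50 (adjusted p = 0.053; -1.68 without MC221, adjusted p = 0.065). It passed with quantile scaling (-2.01, limma adjusted p = 0.0057), the strict filter (adjusted p = 0.046), the authors' values (-1.63, adjusted p = 0.031), only the groups compared (adjusted p = 0.019) and the slide block (-1.49, adjusted p = 0.027), and was 0.01 with normexp correction. The day 4 call ended with normexp correction (0.71), with only the groups compared in the fit (2.28, limma adjusted p = 0.058) and without any of 6 of the 8 arrays (2.06 to 2.31). It held in sign within each of the 4 slides (1.56 to 3.09). TdTomato cells were lower than EGFP cells of the same mouse in 3 of 3 mice at day 1 (-2.28 to -0.64) and 4 of 4 at day 4 (-1.81 to -0.62). The fitted differences were -0.95 (limma adjusted p = 0.16; -1.42 and adjusted p = 0.0081 with the replicate block) and -1.26 ± 0.50 (adjusted p = 0.033; lost without EGFP MC151 or MC823 or TdTomato MC151 or MC692, -1.17 to -0.91). At day 7 only 1 of the 2 TdTomato arrays, MC791 (-4.09), and 0 of the 4 EGFP arrays were well above background, so the difference is a bound near 1 (at least 1.04-fold). The fitted 1.91 ± 0.61 did not pass (limma adjusted p = 0.059). It passed with the block (2.14, limma adjusted p = 0.018), the slide block (2.10, adjusted p = 0.015) and the authors' values (2.27, adjusted p = 0.012). The authors' values at day 7, here and in EGFP cells, hold the MC221 columns that match no scanner file. The difference was 0.51 with normexp correction, 2.66 without MC221 and 1.25 without the TdTomato array of MC791. The changes from day 0 differed by -1.0 at day 1 and -1.31 at day 4 (limma adjusted p = 0.32 and 0.14), and both passed with the block (-1.47 and -1.31, adjusted p = 0.032 and 0.033).

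Ednrb, the receptor that endothelium uses to clear endothelin-1 and to release nitric oxide, was higher in TdTomato cells at day 7. The day 7 arrays read -1.01 (MC221) and 0.87 (MC791), above the day 0 arrays at -3.29, -4.85, -3.01 and -3.32 and above all other groups. The day 4 TdTomato arrays were split, at -4.11 and -4.53 in MC151 and MC692 and -1.34 and -1.37 in MC822 and MC823. EGFP arrays lay between -5.13 and -2.57 at all days, and their groups overlapped. The day 7 rise was 11.7-fold (3.55 ± 0.85, limma adjusted p = 0.0046; 4.49 without MC221, adjusted p = 0.0080; 2.61 without MC791, adjusted p = 0.13). Against EGFP cells at day 7 it was 3.54 ± 0.85 (limma adjusted p = 0.0093; 4.83 without MC221, adjusted p = 0.010; 2.60 without MC791, adjusted p = 0.22). The second Ednrb probe gave 4.85 and 4.61 (limma adjusted p = 0.0057 and 0.013). At day 4 TdTomato cells exceeded EGFP cells in 4 of 4 mice (0.25 to 2.19), a difference of 1.27 that did not pass (limma adjusted p = 0.12). It passed with the replicate block (adjusted p = 0.029) and without the TdTomato array of MC692 (1.84, adjusted p = 0.029), and was 0.77 without that of MC822 and 0.78 without that of MC823. The difference in change from day 0 to day 7 was 3.22 ± 1.09 (limma adjusted p = 0.15; 4.51 without MC221), and 4.20 with the second probe (adjusted p = 0.19). It passed narrowly with normexp correction (1.57, limma adjusted p = 0.0497) and the slide block (3.48, adjusted p = 0.049). It also passed with the authors' values (3.93, limma adjusted p = 0.026), which hold the unmatched MC221 columns.

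Some endothelial markers moved with Ednrb. Of the 14 on the list, 8 rose in TdTomato cells at day 7 (Cdh5, Egfl7, Eng, Esam, Flt1, Pecam1, Ptprb and Tek) and 0 fell (19.4% of all genes were called, 10.9% higher). At that day 9 were higher than in EGFP cells (6.99% of all genes were called, 6.19% higher). Without MC221 both counts were 3 (Eng, Esam and Pecam1). Tek rose 10.9-fold (3.44 ± 1.09, limma adjusted p = 0.029) and Flt1 8.26-fold (3.05 ± 0.91, adjusted p = 0.021), and these 2 receptors are also members of the VEGF and angiopoietin lists above. Pecam1 stood at -2.22 ± 0.44 (SD, n = 4) at day 0 and at -0.32 ± 0.61 (SD, n = 2) at day 7. At day 4 Cdh5 was high on the arrays of MC822 and MC823 (0.43 and 0.38) and low on MC151 and MC692 (-3.37 and -5.01), the same split as Ednrb. Pecam1 and Esam did not share it, as they were above day 0 on all 4 of these arrays. The means of Kdr (2.41 against 3.01) and Cldn5 (6.10 against 7.60) were lower at day 4 than at day 0. The summed linear signal of the list, in units of the 75th percentile, was 166 to 261 at day 0, 46.0 to 69.9 at day 1, 62.0 to 142 at day 4 and 185 to 233 at day 7 in TdTomato cells, and 13 or 14 of 14 markers were detected at days 0, 4 and 7. This sum is carried by Cldn5, which podocytes also express and which read 7.25 to 7.90 in TdTomato cells at day 0. The part of endothelial RNA in the Ednrb result was not tested.

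**Figure D3:**
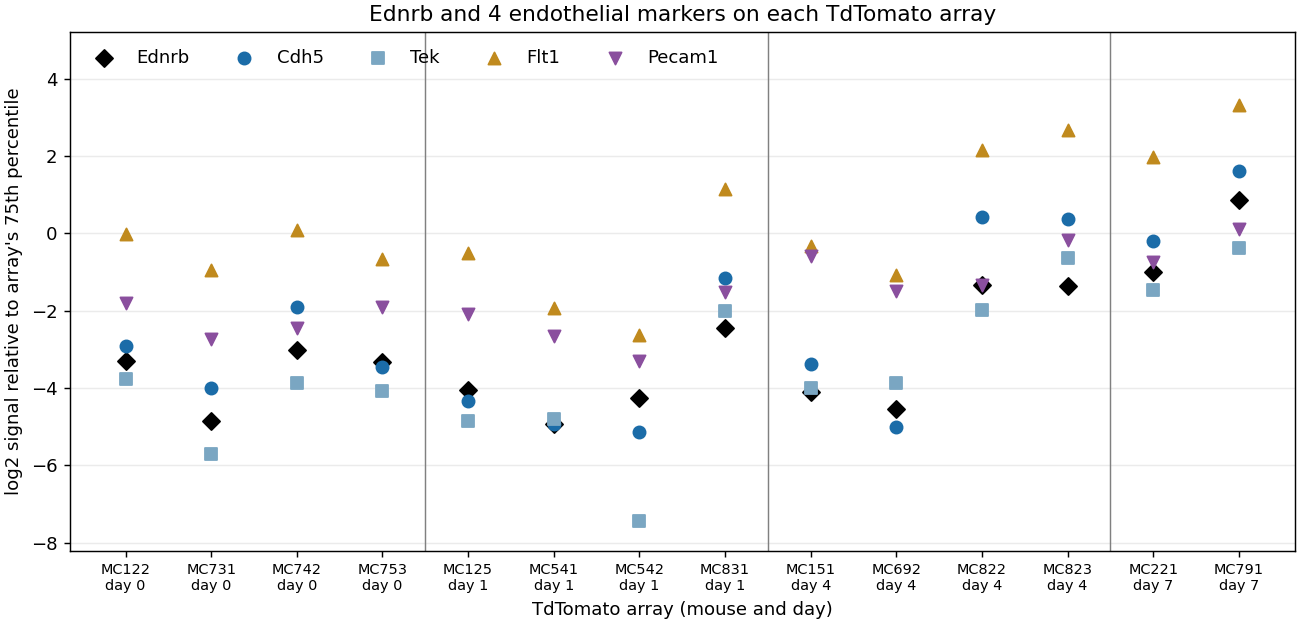
Log2 signal relative to the 75th percentile (y axis) of Ednrb and the endothelial markers Cdh5, Tek, Flt1 and Pecam1 on the 14 TdTomato arrays, ordered by day (x axis, with mouse). Ednrb at -1.37 to 0.87 coincides with high Cdh5, Tek and Flt1 on the arrays of MC822 and MC823 at day 4 and both arrays of day 7. Pecam1 was above its day 0 range on every array of day 4, and the other markers of the list are not drawn.

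Counted over the 10 genes, EGFP cells showed 0 calls at day 1, when 0.0256% of all genes were called and 467 of 15624 were at an unadjusted p under 0.05 by limma. At day 4 there was 1 call, Ednra, which was higher (0.595% of all genes were called, 0.557% higher). At day 7 Angptl4 and Edn1 were higher and Vegfa and Sema3g lower (7.26% of all genes, 5.34% higher and 1.92% lower). With only the groups compared in the fit, or without MC221, the day 7 count was 2.

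In TdTomato cells 1 of the 10 was higher and 3 were lower at day 1 (51.8% of all genes were called, 23.8% higher and 27.9% lower). At day 4, 5 were higher and 2 lower (57.3% of all genes, 21.4% higher and 35.9% lower). At day 7, 4 were higher and 2 lower (19.4% of all genes, 10.9% higher and 8.47% lower). At days 1 and 4 the share of the 10 genes that was called lies near that of all genes. The median difference of the 10 was -0.58, 0.88 and 0.84 at these days, beside -0.13, -0.29 and -0.14 for all genes.

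Between the populations there were 0 calls at day 0 (0% of all genes, with 74 at an unadjusted p under 0.05 by limma). At day 1 TdTomato cells were higher for 1 gene and lower for 3 (49.3% of all genes were called, 23.7% higher and 25.6% lower). At day 4 they were higher for 3 and lower for 3 (59.6% of all genes, 21% higher and 38.6% lower), and at day 7 higher for 3 and lower for 0 (6.99% of all genes, 6.19% higher and 0.8% lower). The change from day 0 differed for 3 of the 10 at day 1, 1 more positive and 2 more negative in TdTomato cells (38.4% of all genes, 18.3% and 20.1%). It differed for 4 at day 4, 2 each way (44.4%, 16% and 28.3%), and for 1 at day 7, Edn1, which was more positive (2.69%, 2.65% and 0.0384%). With the mouse as a replicate block the counts of these differences in change at days 1 and 4 were 5 and 7. In these comparisons of the populations the block is each mouse as a fixed term, so arrays of mice without a pair do not count. Between the populations the block added calls of Vegfb and Ednra at day 1 and of Vegfb, Angptl4 and Ednrb at day 4. At day 7 it added Ednra and ended Angpt1. The comparisons with day 0 of a population share their control arrays.

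**Figure D4:**
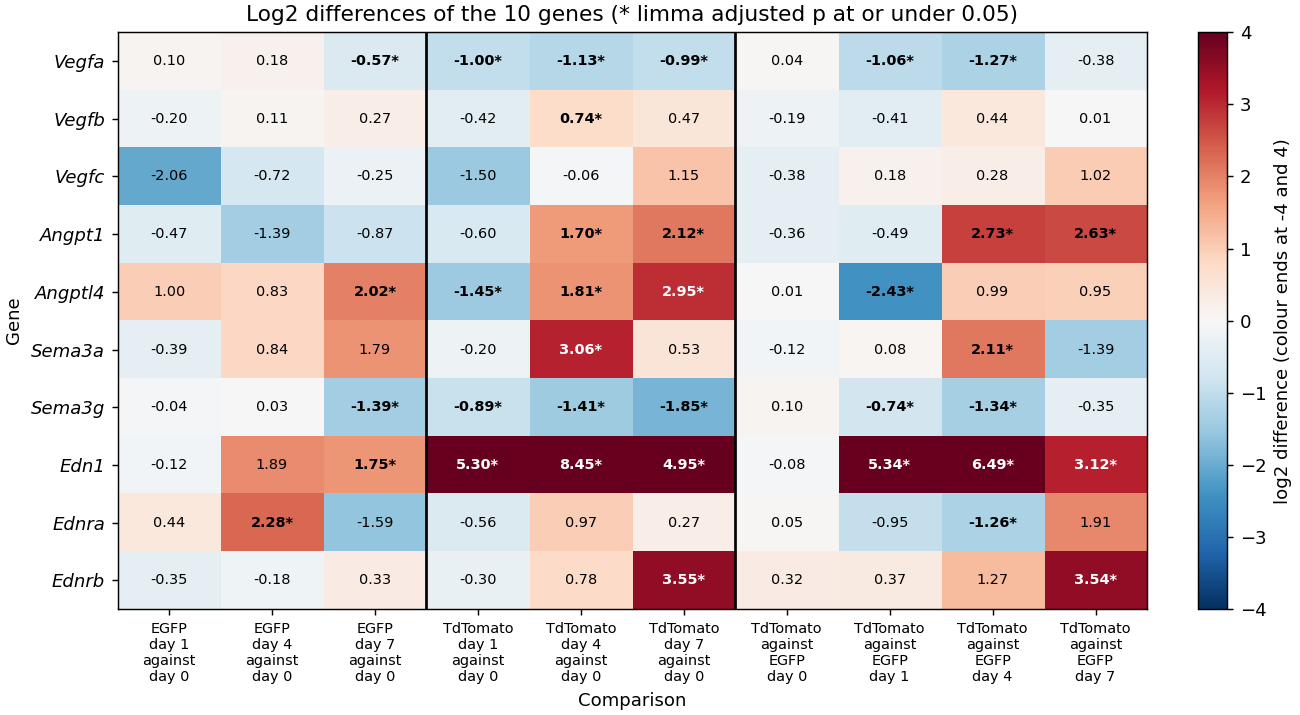
Log2 differences of the 10 genes (rows) in the 10 comparisons of later days with day 0 and of TdTomato with EGFP cells at each day (columns), with an asterisk where the limma adjusted p is at or under 0.05; red is higher and blue lower. The TdTomato columns hold calls for Vegfa, Sema3g, Angptl4 and Edn1 at days 1, 4 and 7, while the EGFP columns hold calls at days 4 and 7 only and the day 0 column holds none.

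VEGF-A, angiopoietin-like 4 and endothelin-1 are known targets of hypoxia-inducible factors, so that pathway was read as a list. Of 18 other hypoxia-induced genes, 4 rose and 7 fell in TdTomato cells at day 1, 2 rose and 9 fell at day 4, and 0 rose and 1 fell at day 7 (0 and 0 without MC221), with medians of -0.37, -0.55 and -0.28. Of all genes 51.8%, 57.3% and 19.4% were called at these days, so the counts at days 1 and 4 lie near the share of all genes. Risers included the transcription factor Bhlhe40 (10.2-fold at day 1, 3.35 ± 0.47) and the glycolytic regulator Pfkfb3 (10.1-fold, 3.34 ± 0.39), and the carbonic anhydrase Car9 at day 4 (6.04-fold, 2.60 ± 0.40), each past the limma test. The collagen hydroxylase P4ha1 fell at day 4 (2.35-fold, -1.23 ± 0.17) and at day 7 (1.55-fold, -0.64 ± 0.21; -0.63 without MC221, limma adjusted p = 0.18). In EGFP cells at day 7, Adm (0.88 ± 0.22) and Pgk1 (0.55 ± 0.17) rose and Ddit4 (-1.18 ± 0.28) fell. Epas1, the hypoxia-inducible factor subunit of podocytes and endothelium, fell in TdTomato cells at day 1 (3.13-fold, -1.65 ± 0.29, limma adjusted p = 3.1e-05) and at day 4 (1.63-fold, -0.71 ± 0.29, adjusted p = 0.038), and in EGFP cells at day 7 (1.97-fold, -0.98 ± 0.29, adjusted p = 0.036; without MC221 adjusted p = 0.052). Of the 8 genes of hypoxia factor regulation, 1 rose and 3 fell at day 1 and 0 rose and 5 fell at day 4 in TdTomato cells.

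The genes whose signal across all 29 arrays was most like that of a member were found by Pearson correlation over 15574 genes, as a description of arrays that share their groups. For Vegfa these were Chd3 (r = 0.944), C1qtnf7 (0.940) and Ddb2 (0.932). For Angptl4 they were Tspyl3 (r = 0.907), Rab19 (0.886) and Mical1 (0.883), and for Edn1 Potegl (r = 0.968), Papss2 (0.968) and Coprs (0.966).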

How the data were processed

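The intensity deposited for each spot is the processed signal of a 1-colour Cy3 scan. Agilent Feature Extraction 11.5.1.1 (per the submitters' processing notes) subtracted its background, per the file headers. The log2 table the authors deposited served as an alternative, and the sources used here do not say how it was scaled. Spots marked non-uniform or outlying were dropped. Each array's 75th percentile was subtracted from its log2 signal, and spots of a probe were averaged. RefSeq accessions gave 26576 of 55681 probes 1 symbol and 29105 none. Probes well above background on at least 3 of 29 arrays were kept (38196), and the brightest probe stood for a gene. limma 3.58.1 in R 4.3.3 fitted 8 group means to all arrays for 13 comparisons, with Benjamini-Hochberg adjustment over 15624 genes and a threshold of 0.05. Groups of 2 borrow the spread of the others, as does the lone array left without MC221. A fold is "at least" where no array of the dimmer group was well above background, and then uses each array's detection level. The fit was run on simulated data with independent arrays and changes in TdTomato cells at day 4 only. That run does not cover the pairing by mouse or groups of 2.

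Both populations of a mouse form a pair, being from the same animal. With group means removed, the correlation across genes between the arrays of a pair was 0.041 to 0.636. The consensus correlation within mice that limma estimated gene by gene, a different measure, was 0.596. The replicate block used this correlation for the comparisons with day 0. Between the populations, and for differences in change, the replicate block was instead each mouse as a fixed term. Only mice that gave both populations count there. Alternatives were the mouse as a replicate block, a slide block, normexp (offset 50, on the median signal), quantile scaling, other filters, the authors' values, only the groups compared, the mean of probes, leaving out each array, and, chosen after seeing the data, the other probe and the lists without MC221. The rule named the 10 genes, up to 3 called genes of each list per comparison by size (detected throughout the higher group), the 3 genes most like Vegfa, Angptl4 and Edn1, and Nphs1 and Pecam1. The endothelial genes beside Ednrb and Edn1, Cldn5, and list genes given with no value were named after their values were seen. The 10 genes and the lists were chosen with earlier results of these data known. Tables used pandas 2.3.3 and numpy 2.4.6 in Python 3.11.15, and plots matplotlib 3.10.9.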

Additional observations from a re-analysis of the deposited data

Results flagged for a closer look

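Some arrays stood apart within their group of 4, by Dixon's gap test, over 60 groups of 4 arrays tested for the 10 genes; chance alone picks out about 1 in 20 groups. Mouse MC742 was high at day 0 for Edn1 in EGFP cells (-3.87, nearest other -5.38) and in TdTomato cells (-3.97, nearest -5.38), and for Ednra in EGFP cells (-4.43, nearest -5.21). Angpt1 was high in EGFP cells of MC791 at day 7 (-4.75, nearest -6.16), and Ednrb was low in TdTomato cells of MC731 at day 0 (-4.85, nearest -3.32).

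The change from day 0 differed between TdTomato and EGFP cells, by limma's test of that difference, for Vegfa at day 1 (-1.10) and day 4 (-1.31), Angptl4 at day 1 (-2.45), Angpt1 at day 4 (3.10), Sema3g at day 4 (-1.44), and Edn1 at day 1 (5.42), day 4 (6.57) and day 7 (3.20).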

How the results depend on the processing

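The settings other than leaving out an array or mouse include the fit of only the groups compared, which uses the arrays of those groups. Under them 1094 values of the 10 genes kept their side of the threshold, 25 lost a call, 42 gained one and 22 moved without one. No called value turned its sign. Normexp correction shrank dim genes, and the calls it ended were all of Angpt1, Sema3a, Ednra or Edn1. The strict filter dropped Sema3a. Of the 10 genes, those called in EGFP cells at day 4 (1) were 0 with normexp, 0 with only the groups compared, 2 with the authors' values and 2 with the slide block. In EGFP cells at day 7 (4) they were 2 with only the groups compared and 2 without both arrays of MC221. The differences in change at day 7 (1) were 2 with normexp, 2 with the strict filter, 3 with the authors' values, 2 with only the groups compared and 3 with the slide block. With the mouse as a replicate block the differences in change were 5 at day 1 (3) and 7 at day 4 (4). The calls the block changed stand beside their results, and it changed no other call of the 10 genes. Leaving out 1 array gave 0 to 2 calls in EGFP cells at day 4 and 1 to 4 at day 7. In TdTomato cells it gave 3 to 5, 7 to 8 and 3 to 6 at days 1, 4 and 7, between the populations 3 to 4, 4 to 6 and 1 to 3, and for the differences in change 3 to 3, 4 to 5 and 0 to 2. EGFP cells at day 1 and the populations at day 0 stayed at 0 to 0. Of 226 calls of list genes over all comparisons, 0 changed sign with quantile scaling or the authors' values and 2 with normexp. Signal near background limits Angpt1, Sema3a, Ednra and the day 0 level of Edn1.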
